A study of Mus musculus with 10 samples.

Results

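RNA of skin cells that express Ebf2 was compared with RNA of mesenchymal stem cells of bone marrow, across all genes. The comparison rests on 7 of the 10 libraries of the study, 3 of skin Ebf2+ cells and 4 of bone marrow cells, chosen by their labels. Both kinds of cell were sorted fresh by flow cytometry from enzyme-digested tissue and depleted of cells with CD45, TER119 or CD31, which mark leukocytes, red blood cell precursors and endothelium. The skin cells were further sorted for Ebf2 and came from dorsal skin of FVB/N mice of 8 to 12 weeks, and the bone marrow cells were further sorted for Sca1 and CD51 and came from C57BL/6 mice of 8 to 10 weeks. The remaining 3 libraries, skin Ebf2- cells sorted for CD140a and Sca1 and called PαS, were in the fit but in neither group compared. They helped to estimate the spread, to set the scaling and to decide which genes were tested. The design text gives 3 mice for the skin cells and 4 for bone marrow. Tissue, mouse strain, sorting markers and, for 3 of the 4 bone marrow libraries, an origin in an earlier study differ together between the groups and cannot be told apart.

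Ebf2 encodes early B cell factor 2, a transcription factor known from precursors of fat, bone and other mesenchymal cells. Bone marrow mesenchymal stem cells sit beside bone and blood vessels, give rise to bone, cartilage and fat cells, and supply blood stem cells with signals. Fibroblasts and vessel wall cells of dorsal skin build the dermis, surround hair follicles and keep a record of body position in the Hox and other patterning genes that they express.

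Levels are CPM, counts scaled to a common library total, after TMM scaling, which corrects for unequal RNA composition. A gene was called where edgeR's quasi-likelihood test gave a Benjamini-Hochberg adjusted p below 0.05 over all genes tested, and a log2 fold change is skin Ebf2+ over bone marrow, with its standard error. Total counts were 9830418 to 12982661 in the skin Ebf2+ libraries and 18122495 to 39422062 in those of bone marrow, so 3 counts stood for 0.231 to 0.305 CPM and 0.0761 to 0.166 CPM of a library before scaling. Intervals and floors of this kind cover counting error only. The labels do not state for each library that it came from a mouse of its own, so the p-values measure the spread between these libraries.

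Bone marrow 1 and 4 were nearly the same profile. Their log2(CPM + 1) values correlated at r = 0.998 across genes, against 0.810 to 0.895 for the other pairs of bone marrow libraries. A chi-square statistic of their counts came to 3.19 per gene, more than sampling noise gives, and to between 255.7 and 579.6 per gene for the other bone marrow pairs. Results are therefore given with the 4 libraries and again with the counts of bone marrow 1 and 4 summed. The skin Ebf2+ libraries were less alike than the marrow libraries, with r between 0.657 and 0.751, and skin Ebf2+ 1 correlated with bone marrow 2 at 0.783. Of all counts, the ribosomal Rn45s held 12.5%, 8.69% and 0.593% in skin Ebf2+ 1 to 3 and 3.04% to 8.95% in bone marrow.

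**Figure D1:**
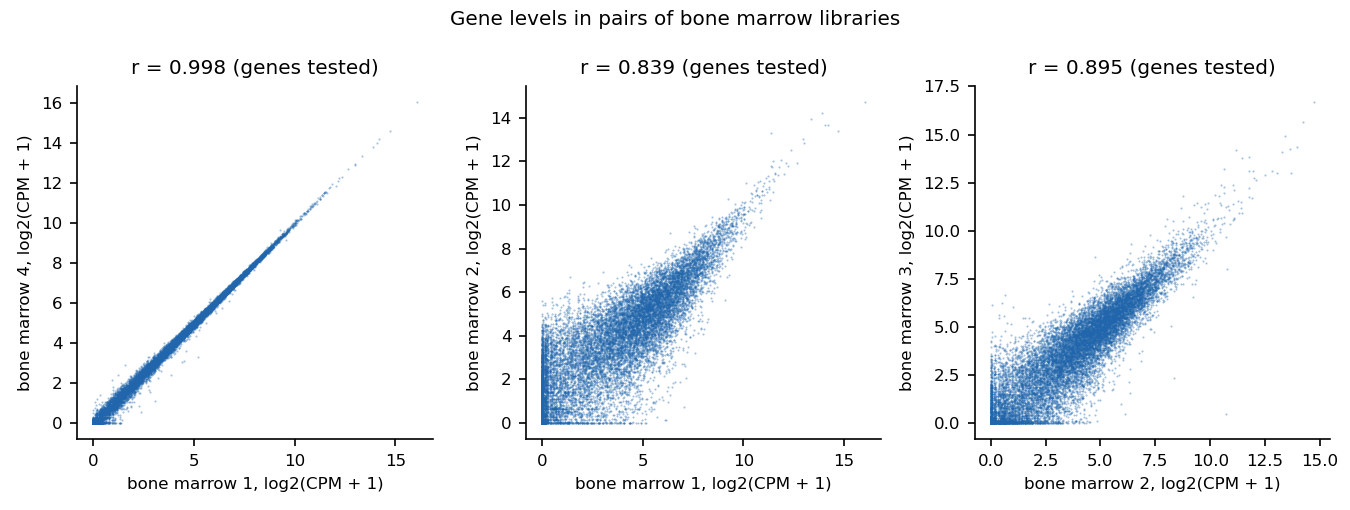
Each point is 1 of the 14995 genes, with its log2(CPM + 1) in one bone marrow library on the horizontal axis and in another on the vertical axis. The correlation r is over the genes tested. Bone marrow 1 and 4 lie on a line (r = 0.998), while bone marrow 1 and 2 (r = 0.839) and bone marrow 2 and 3 (r = 0.895) scatter.

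Of 14520 genes tested, 134 were called (0.923%), 82 of them higher (0.565%) and 52 lower (0.358%) in skin Ebf2+. With bone marrow 1 and 4 summed, 51 of 14397 genes were called (0.354%), 26 higher (0.181%) and 25 lower (0.174%), and all 51 were among the 134. The called differences were large. The median log2 fold change was 6.48 among the higher genes and -6.00 among the lower ones, against 0.09 over all genes tested, and the smallest were 1.99 and -2.22. Of the 52 genes called lower, 52 had every skin library below every bone marrow library, as did 7.66% of all genes tested. Of the 82 called higher, 73 had every skin library above every bone marrow library, as did 6.05% of all genes tested. Genes called by p tend not to overlap between the groups, so these counts are no separate support. In bone marrow 12 of the higher genes had 0 reads, and in skin Ebf2+ 9 of the lower genes had 0 reads. The unadjusted p was below 0.05 for 2124 genes, and the authors' deposited table lists 1150 genes at its own adjusted p below 0.05, with 131 of the 134 among them. By the same fit 0 of 14520 genes were called between skin Ebf2+ and skin Ebf2-. A difference from bone marrow is therefore not shown to be particular to the Ebf2+ cells of skin.

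**Figure D2:**
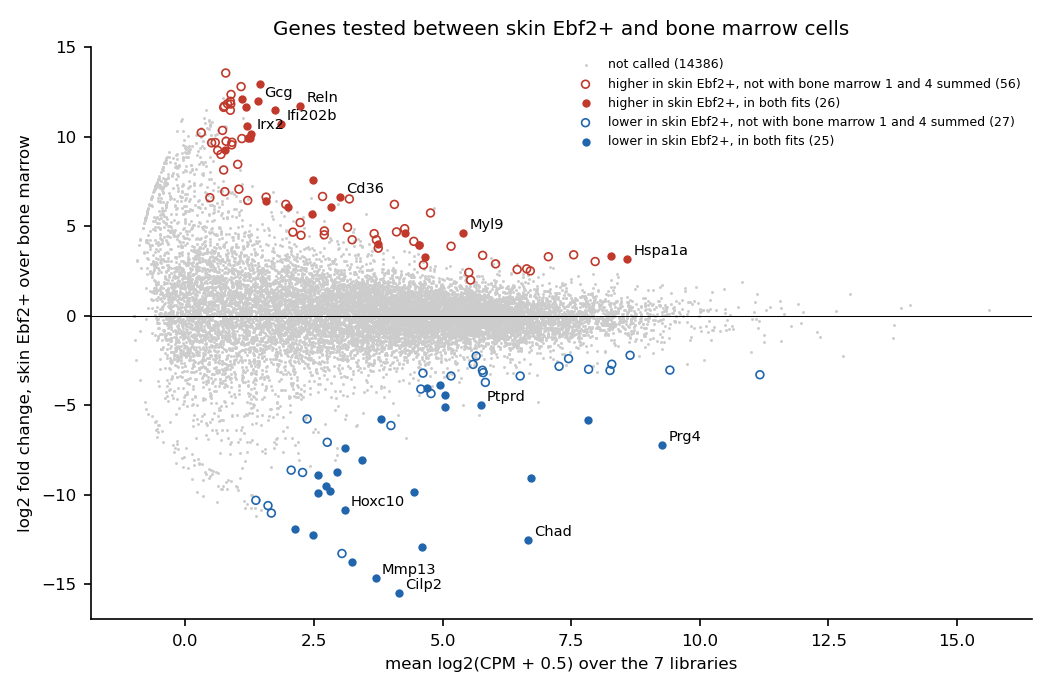
Log2 fold change (skin Ebf2+ over bone marrow) of every gene tested against its mean log2(CPM + 0.5) over the 7 libraries. Filled points are the 26 higher and 25 lower genes called in both fits, open points are called only while bone marrow 1 and 4 stand apart, and the called genes lie far from 0 on both sides.

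Genes of cartilage, bone and tendon were among those that fell in skin Ebf2+. Of 22 genes of cartilage matrix and chondrocytes 6 fell in skin Ebf2+, 0 rose and 16 were not called, with a median log2 fold change of -3.58 against 0.09 over all genes. Of 29 genes of osteoblasts and bone matrix 5 fell and 0 rose (median -1.69), and of 11 tendon and ligament genes 3 fell and 0 rose (median -3.14). All 6 cartilage, 4 of the 5 bone and 2 of the 3 tendon genes also fell with bone marrow 1 and 4 summed. The 23 cartilage genes in the table together made up 521 to 703 CPM of the skin Ebf2+ libraries, against 8605 to 42128 CPM of the bone marrow libraries. In bulk RNA, fewer cells of a type and less RNA of a gene per cell cannot be told apart, here and in the results that follow.

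Chad encodes chondroadherin, a matrix protein of cartilage that binds collagen and integrins. Its level was 1.05, 0.786 and 0.156 CPM in skin Ebf2+ 1 to 3 and 2314, 1560, 9327 and 2430 CPM in bone marrow 1 to 4. The groups lay far apart, with bone marrow 3 the highest library, and Chad was called in each of the 28 alternative settings. Cilp2 (Entrez 68709, GRCm38, chromosome 8, 69880366 to 69887392), a protein of the cartilage intermediate layer, had 0 reads in skin Ebf2+ and stood at 179.8, 149.7, 875 and 183 CPM in bone marrow 1 to 4. It was at least 3797-fold lower in skin Ebf2+, against a floor of 3 counts over the 3 skin libraries (edgeR adjusted p = 0.00189, and 0.00312 with bone marrow 1 and 4 summed). Clec3a, a lectin of cartilage, had 2 reads in skin Ebf2+ and 247, 317, 1469 and 233 CPM in bone marrow. Cytl1, a cytokine-like protein that cartilage secretes, stood at 0.116, 0.175 and 0.703 CPM in skin Ebf2+ and at 286, 82.5, 636 and 295 CPM in bone marrow (log2 fold change -9.84 ± 1.08). In all of these genes bone marrow 3 held the highest level, and no skin library came near the lowest bone marrow library.

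Comp encodes cartilage oligomeric matrix protein, which ties collagen fibrils together in cartilage and tendon. It stood at 0.466, 13.01 and 0.234 CPM in skin Ebf2+ and at 1128, 2081, 5386 and 1161 CPM in bone marrow (log2 fold change -9.05 ± 1.57, edgeR adjusted p = 0.0196, and 0.0356 with bone marrow 1 and 4 summed). Skin Ebf2+ 2 was the highest of the skin libraries. Prg4 encodes lubricin, the lubricant of joint surfaces. It ran from 8.15 to 129 CPM in skin Ebf2+, again highest in skin Ebf2+ 2, and from 2629 to 17600 CPM in bone marrow (log2 fold change -7.26 ± 1.32, edgeR adjusted p = 0.0252). Other defining genes of cartilage differed in the same direction without being called. Acan, the large proteoglycan of cartilage, stood at 0, 0 and 0.703 CPM against 25.9, 31.6, 191 and 26.1 CPM. Sox9, the transcription factor of chondrocytes, stood at 28.5, 0.611 and 40.9 CPM against 80.7, 61.2, 220.2 and 84.6 CPM, and Col2a1, the main collagen of cartilage, overlapped between the groups, at up to 17.9 CPM in skin Ebf2+ and as low as 8.90 CPM in bone marrow.

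Among the genes of bone, Mmp13 encodes the collagenase with which chondrocytes and osteoblasts remodel their matrix. It had 0 reads in skin Ebf2+ and 81.8, 422, 197 and 73.2 CPM in bone marrow 1 to 4 (at least 2120-fold lower; edgeR adjusted p = 0.00246, and 0.00312 summed). Ibsp, bone sialoprotein, also had 0 reads in skin Ebf2+ and 43.5 to 222 CPM in bone marrow. Phex, an endopeptidase that controls phosphate and mineralisation, stood at 0, 0.0873 and 0.860 CPM against 28.8 to 127 CPM, and Dlx5, a homeobox factor of osteoblasts, at 0.116, 0 and 0.234 CPM against 28.5 to 71.3 CPM. The groups did not overlap in any of these. Bglap, osteocalcin, had 2 reads in skin Ebf2+ and was called with 4 libraries but not after summing (edgeR adjusted p = 0.0437 and 0.0684), and its reads may be shared with the close copy Bglap2. Runx2, the factor that starts the osteoblast programme, stood at 17.7, 24.5 and 4.06 CPM against 129, 130.0, 80.5 and 127 CPM and was not called (log2 fold change -2.92 ± 0.90, edgeR adjusted p = 0.150). Col1a1, a chain of collagen I, which is abundant in both dermis and bone, overlapped between the groups and stood at 2266, 3246 and 3413 CPM in skin Ebf2+ and at 2790, 3458, 8811 and 2924 CPM in bone marrow.

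Tnmd encodes tenomodulin, a membrane protein of tendon cells. It stood at 1.16, 0.0873 and 2.74 CPM in skin Ebf2+ and at 75.1, 76.4, 72.6 and 72.9 CPM in bone marrow, a group with almost no spread (log2 fold change -5.79 ± 0.99, edgeR adjusted p = 0.0176, and 0.0413 summed). Fmod, fibromodulin, ran from 2.97 to 79.9 CPM in skin Ebf2+ and from 1176 to 3737 CPM in bone marrow, and Kera, keratocan, which was not called after summing, from 0 to 2.27 CPM against 56.7 to 176 CPM. Both are small proteoglycans that space collagen fibrils. Of the 28 proteoglycan genes tested, which include some of the cartilage and tendon genes above, 5 fell and 1 rose. Prelp, a further member of that family, stood at 824, 837 and 425 CPM in skin Ebf2+ and at 4708, 3531, 14369 and 4898 CPM in bone marrow. The 1 that rose was Gpc3, a membrane-anchored heparan sulphate proteoglycan, at 647, 422 and 1456 CPM in skin Ebf2+ against 107, 83.1, 20.1 and 109 CPM in bone marrow. Neither Prelp nor Gpc3 was called after summing.

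Genes that record body position differed in both directions. Of 24 Hox genes 3 fell and 1 rose in skin Ebf2+ (median log2 fold change -0.82), and of 32 other positional and patterning transcription factors 2 fell and 2 rose (median -0.58). The Hox median turned positive, at 0.64, with bone marrow 1 and 4 left out. The 3 that fell are posterior Hox genes, used in the lumbosacral trunk and in the limb. Hoxc10 (Entrez 209448, GRCm38, chromosome 15, 102966796 to 102971898) had 1 read in the 3 skin libraries and stood at 71.9, 56.9, 78.3 and 70.2 CPM in bone marrow (edgeR adjusted p = 0.00146, and 0.00626 summed). Hoxa11 also had 1 read in skin Ebf2+, against 22.8 to 50.2 CPM in bone marrow, and overlaps its antisense gene Hoxa11os, so reads of the pair cannot be told apart. Hoxa10 had 2 reads against 15.99 to 73.1 CPM. All 3 were called in both fits.

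Hoxc8, a Hox gene of the thoracic trunk, was higher in skin, at 53.0, 123 and 19.7 CPM against 3.04, 5.04, 7.67 and 3.25 CPM, and was not called after summing. It lies in the same cluster as Hoxc10, which was lower. Tbx4, the transcription factor of the hindlimb, had 0 reads in skin Ebf2+ and 20.1, 48.8, 57.1 and 22.96 CPM in bone marrow (edgeR adjusted p = 0.0123, and 0.0356 summed). Pitx1, another hindlimb factor, had 2 reads in skin Ebf2+ and 1.55 to 12.1 CPM in bone marrow without being called, whereas Tbx5, the forelimb factor, stood at 3.13 to 13.04 CPM against 12.1 to 15.3 CPM. Eya1, a transcriptional co-activator of organ development, had 0 reads in skin Ebf2+ against 8.60 to 15.6 CPM in bone marrow. It fell with 4 bone marrow libraries and was not called after summing. Mab21l2, a gene of eye and body wall development, had 2 reads in skin Ebf2+ and stood at 70.0, 11.8, 76.1 and 73.7 CPM in bone marrow, lowest in bone marrow 2.

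Irx2 (Entrez 16372, GRCm38, chromosome 13, 72624430 to 72634196) encodes an Iroquois homeobox factor that patterns embryonic tissues. It stood at 14.8, 11.4 and 38.1 CPM in skin Ebf2+ and had 1 read in the 4 bone marrow libraries (log2 fold change 10.17 ± 1.13, edgeR adjusted p = 0.00146, and 0.00365 summed), and it was called in 26 of 28 alternatives. Zic1, a zinc finger factor of dorsal mesoderm, stood at 26.3, 25.5 and 1.80 CPM against 4 reads in bone marrow. Zic1 was clearly lowest in skin Ebf2+ 3 but still above every bone marrow library, and the gene was not called after summing. Tbx15, a factor of trunk mesenchyme including dorsal dermis, differed less than the libraries spread, at 83.3 to 228 CPM against 169.7 to 220.0 CPM.

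**Figure D3:**
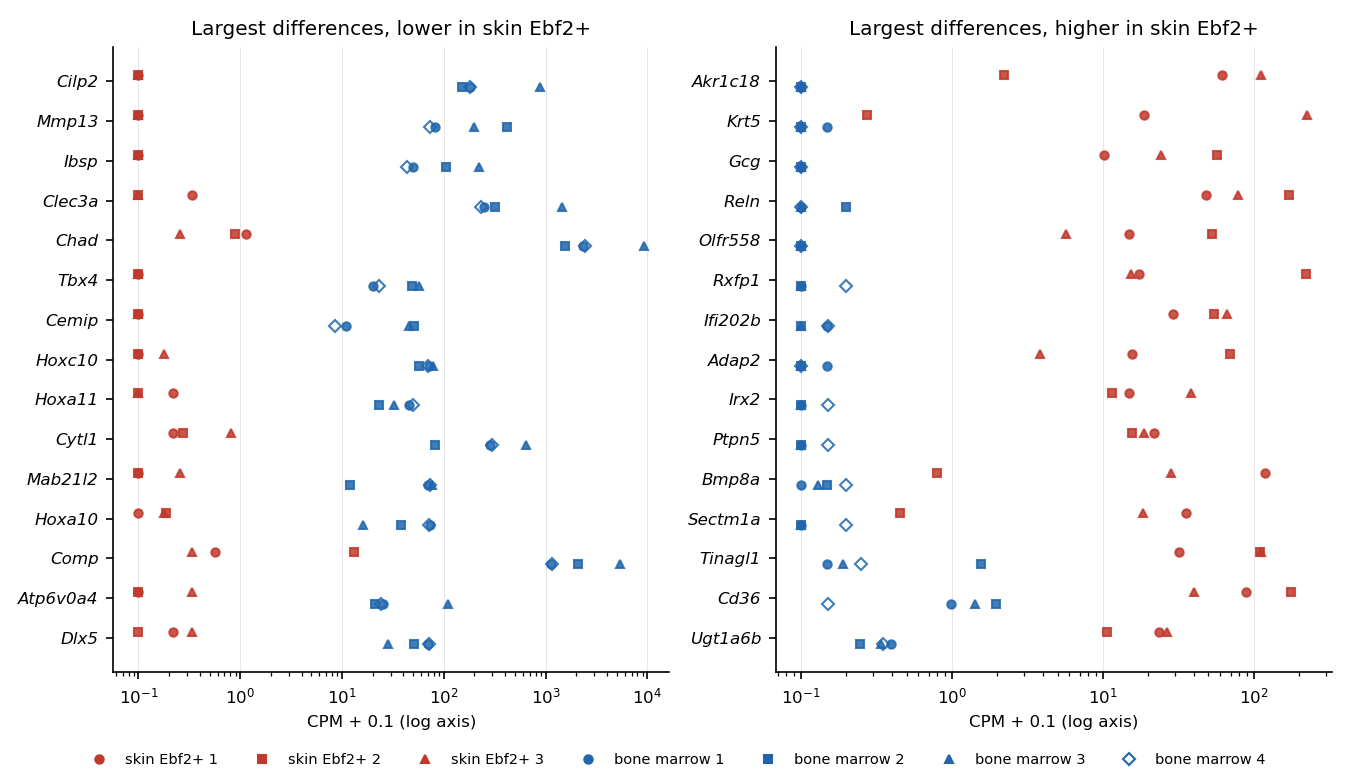
CPM + 0.1 on a log axis for the 15 genes with the largest differences in each direction among genes called in both fits without overlap, one symbol per library. Among the genes lower in skin Ebf2+ the skin libraries stay near the left edge, except skin Ebf2+ 2 for Comp, while skin Ebf2+ 2 falls behind the other two for Akr1c18, Krt5, Bmp8a and Sectm1a among the genes higher in it.

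Genes of epithelium were the largest group among those higher in skin Ebf2+, and they were not high in all skin libraries. Of 29 keratinocyte and epithelial genes tested, 10 rose and 0 fell, 27 had a positive log2 fold change and the median was 6.87 against 0.09 over all genes. With bone marrow 1 and 4 summed 1 of them, Krt5, was called. Of the 10, Krt5, Krt14, Krt15, Krt1, Cdh1, Dsc3, Col17a1 and Ly6d were tested only because the skin Ebf2- libraries were in the fit. With the 7 libraries of both groups alone, 117 of the 134 called genes were tested. Over the 30 members in the table the summed level was 832, 110 and 1728 CPM in skin Ebf2+ 1 to 3 and 192 to 237 CPM in bone marrow, so skin Ebf2+ 2 lay below bone marrow. Krt5, Krt14 and Krt15 encode keratins of the basal layer of the epidermis and the hair follicle. Krt5 stood at 18.7, 0.175 and 224 CPM in skin Ebf2+ 1 to 3, Krt14 at 2.68, 0.349 and 266 CPM, and Krt15 at 5.94, 0 and 179 CPM, with at most 1 read of each in bone marrow.

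Krt1, a keratin of the upper epidermis, and the desmosomal cadherin Dsc3 followed the same order of libraries, at 16.5, 0 and 56.1 CPM and at 8.96, 0 and 36.0 CPM. Other epithelial genes were highest in skin Ebf2+ 1 instead. Krt25, a keratin of the inner root sheath of the hair follicle, stood at 318, 0.175 and 3.99 CPM, the adhesion protein Cdh1 at 63.9, 0 and 29.8 CPM, and Krt19 at 95.9, 0 and 63.1 CPM. Epcam, an epithelial adhesion molecule, was present in all 3 skin libraries, at 3.73, 4.19 and 55.7 CPM, and had 0 reads in bone marrow (at least 666-fold higher). Cldn1, a tight junction protein, was also present in all, at 130.4, 67.0 and 48.5 CPM against 4.67 to 19.7 CPM in bone marrow. Of the 82 genes called higher, 18 were below 1 CPM in skin Ebf2+ 2, against 0 in skin Ebf2+ 1 and 1 in skin Ebf2+ 3. Of these 18, Krt5, Bmp8a, a growth factor of the bone morphogenetic protein family, and Sectm1a were also called after summing. The part of epithelial cells in the other differences was not tested. Without skin Ebf2+ 3 the comparison called 200 genes, and without skin Ebf2+ 2 it called 116.

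**Figure D4:**
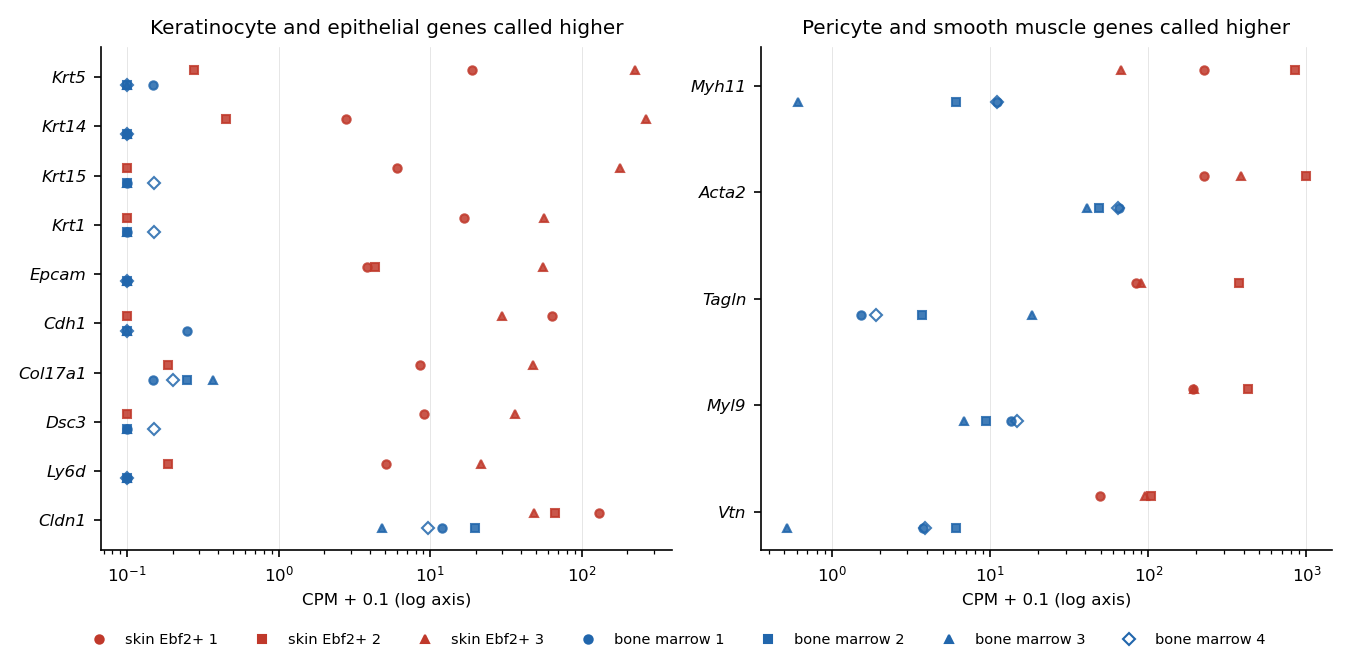
CPM + 0.1 on a log axis for the 10 keratinocyte and epithelial genes and the 5 pericyte and smooth muscle genes called higher in skin Ebf2+, one symbol per library. Skin Ebf2+ 2 is the lowest skin library for 8 of the 10 epithelial genes and the highest for all 5 contractile or mural genes.

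Some genes of contractile vessel wall cells rose as well, and these were highest in skin Ebf2+ 2, the library lowest in keratins. Of 25 pericyte and smooth muscle genes 5 rose and 0 fell, and the median log2 fold change was 3.29. Every skin library was above every bone marrow library in 12 of them, against 6.05% of all genes tested. The summed level of the list was 2414, 7111 and 1938 CPM in skin Ebf2+ 1 to 3 and 1032 to 1384 CPM in bone marrow. Myl9 (Entrez 98932, GRCm38, chromosome 2, 156775408 to 156781657) encodes the regulatory light chain of smooth muscle myosin. It stood at 192, 428 and 193 CPM in skin Ebf2+ and at 13.5, 9.34, 6.74 and 14.6 CPM in bone marrow (log2 fold change 4.62 ± 0.52, edgeR adjusted p = 0.00146, and 0.00893 summed). No other gene of the list was called in both fits, and Myl9 was called in 25 of 28 alternatives.

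Acta2, smooth muscle actin, stood at 224, 993 and 387 CPM against 40.7 to 65.1 CPM, and Tagln, an actin-binding protein of smooth muscle, at 83.1, 375 and 89.7 CPM against 1.42 to 18.2 CPM. Myh11, the heavy chain of smooth muscle myosin, stood at 224, 845 and 67.2 CPM against at most 11.003 CPM. Skin Ebf2+ 2 was the highest library for each of them, and each was above every bone marrow library. Vtn, vitronectin, an adhesive protein made by pericytes, reached 49.6, 104 and 95.8 CPM against 0.419 to 6.02 CPM. Rgs5, a marker of pericytes, varied too much to be called, at 11.2, 135 and 2.66 CPM against 0 to 4.01 CPM (log2 fold change 5.54 ± 2.01), and Pdgfrb, a receptor shared by pericytes and fibroblasts, stood at 305 to 480 CPM against 266 to 318 CPM. Outside the list, Rgs16 and Rgs4, which switch off G protein signals, rose with 4 bone marrow libraries and were not called after summing. Rgs16 stood at 212, 473 and 105 CPM in skin Ebf2+ against 0.300 to 7.87 CPM.

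The region before the start of Myl9 is shown for a CArG box, the site of serum response factor that smooth muscle genes are known for. The sequence is RefSeq's, GRCm38.p6, chr2:156775214-156775407 on the plus strand, upstream of the gene as listed, and capitals mark the match. A CArG box on either strand was found in the 250 bases before the start for 1.47% of 32851 starts in the RefSeq table. The same search before the start of Acta2 gave no match, and only 38 of the bases searched there lie upstream of the gene as listed. A match describes the letters and does not show binding.
Myl9: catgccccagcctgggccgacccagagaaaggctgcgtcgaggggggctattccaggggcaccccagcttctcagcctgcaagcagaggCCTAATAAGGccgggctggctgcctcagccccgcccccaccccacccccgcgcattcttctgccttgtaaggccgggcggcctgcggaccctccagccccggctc

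A few genes that take up fatty acids and handle lipids rose in skin Ebf2+, while most of their lists were not called. Of 38 lipid and lipoprotein genes 4 rose and 0 fell (median log2 fold change 0.76), and of 20 adipocyte lineage genes 2 rose and 0 fell (median -0.13, and 0.02 with bone marrow 1 and 4 summed). Cd36, a fatty acid transporter that belongs to both lists, stood at 88.6, 176 and 39.9 CPM in skin Ebf2+ and at 0.882, 1.86, 1.32 and 0.050013 CPM in bone marrow. Fabp4, a fatty acid carrier also in both lists, stood at 41.0, 139 and 36.0 CPM against 0.200 to 1.76 CPM. Both were called in both fits, and skin Ebf2+ 2 was the highest library for each. Pparg, the factor that drives fat cell formation, stood at 5.82, 6.03 and 5.31 CPM against 3.52 to 6.76 CPM, and Adipoq, the adiponectin gene of mature fat cells, had 0 reads in skin Ebf2+ and 0.180 to 9.11 CPM in bone marrow. Neither was called. Apoe, the apolipoprotein E gene, reached 339, 894 and 1520 CPM against 63.0 to 146 CPM, and Ptges, prostaglandin E synthase, 264, 265 and 197 CPM against 35.9 to 45.2 CPM (log2 fold change 2.58 ± 0.41), and neither was called after summing. Ucp2, a carrier of the inner mitochondrial membrane, stood at 91.5, 55.3 and 196 CPM against 6.68 to 8.65 CPM and was called in both fits.

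Enzymes that modify steroids and drugs were among the largest increases. Of 54 drug, retinoid and steroid genes 3 rose and 0 fell, with a median of 0.17. Akr1c18, a reductase that inactivates progesterone, stood at 61.7, 2.10 and 111 CPM in skin Ebf2+ and had 0 reads in bone marrow, at least 1833-fold higher (edgeR adjusted p = 0.00885, and 0.0170 summed). Its relative Akr1c14, a hydroxysteroid dehydrogenase, stood at 129.7, 50.05 and 195 CPM against 3.62 to 8.12 CPM (log2 fold change 4.63 ± 0.63). In both genes skin Ebf2+ 2 was the lowest skin library, by a wide margin in Akr1c18. Ugt1a6a and Ugt1a6b, glucuronosyltransferases that share exons, stood at 34.5, 16.2 and 38.2 CPM and at 23.5, 10.5 and 26.3 CPM, against at most 0.809 CPM in any bone marrow library. Reads of this pair, and of the Akr1c family, may be split between near copies. Cyp4b1, a cytochrome P450, stood at 54.8, 203 and 151 CPM against 0.0300 to 4.84 CPM and was not called after summing.

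Some heat shock genes of the HSP70 family rose in skin Ebf2+. Of 24 heat shock genes 3 rose and 0 fell, all 3 in both fits, while the median of the list was 0.43. Hspa1a and Hspa1b encode the stress-inducible HSP70 chaperone. Hspa1a stood at 1617, 947 and 1589 CPM in skin Ebf2+ and at 116, 219, 174 and 113 CPM in bone marrow, and Hspa1b at 1287, 628 and 1754 CPM against 97.2, 176, 116 and 92.1 CPM. The pair is nearly identical, so reads may be split between them, and the neighbouring Hspa1l stood at 74.6, 24.7 and 95.7 CPM against 3.45 to 5.09 CPM. Other chaperones were not called. Hspa8, the constitutive member, stood at 1208 to 1974 CPM against 979 to 1521 CPM, Hsp90aa1 at 155 to 678 CPM against 133 to 261 CPM, and Dnajb1 at 198 to 525 CPM against 129.9 to 214 CPM. The immediate early and stress genes, which respond to tissue handling, had 0 calls among 32 by edgeR, with 6 at an unadjusted p below 0.05, and a median of 0.23. DESeq2 called 2 of them and limma-voom 0. The part of tissue handling in the heat shock genes was not tested.

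The 250 bases before the starts of Hspa1a and Hspa1b are shown because the copies are alike outside their transcribed part too: 247 of 250 bases are equal. They are RefSeq's, GRCm38.p6, chr17:34972157-34972406 and chr17:34959239-34959488, both on the minus strand and written 5′ to 3′. Capitals mark GAANNTTC, a core of the heat shock element, at bases 104 to 97 before the start in both. GAANNTTC reads the same on both strands and was found in 6.69% of the 32851 upstream regions of this length, and in either order of its repeats (GAANNTTC or TTCNNGAA) in 12.8%. Neither form was found in the 250 bases before the start of Hspa1l.
Hspa1a: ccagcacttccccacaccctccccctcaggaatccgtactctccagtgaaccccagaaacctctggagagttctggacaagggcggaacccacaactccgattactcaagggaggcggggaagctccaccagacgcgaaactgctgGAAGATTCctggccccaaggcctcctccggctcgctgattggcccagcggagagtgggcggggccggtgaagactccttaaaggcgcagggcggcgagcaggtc
Hspa1b: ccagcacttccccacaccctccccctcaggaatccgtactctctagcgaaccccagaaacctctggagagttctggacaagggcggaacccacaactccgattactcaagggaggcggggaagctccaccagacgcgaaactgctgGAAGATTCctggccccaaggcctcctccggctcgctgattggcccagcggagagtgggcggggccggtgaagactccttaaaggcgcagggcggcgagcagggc

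A few inflammatory and interferon-induced genes rose in skin Ebf2+ with 4 bone marrow libraries, and no chemokine, cytokine or interferon-induced gene of the lists was called after summing. Of 33 chemokine and cytokine genes 2 rose and 0 fell (median log2 fold change 0.96). Of 39 interferon-induced genes 2 rose and 0 fell (median 1.10). Every skin library was above every bone marrow library in 14 of the 39, against 6.05% of all genes tested. Il6, an inflammatory cytokine, stood at 223, 307 and 109 CPM against 24.1 to 38.04 CPM, and Ccl2, which attracts monocytes, at 262, 348 and 76.2 CPM against 14.8 to 30.7 CPM. Skin Ebf2+ 2 was the highest and skin Ebf2+ 3 the lowest of the skin libraries for both. Ptx3, a pattern recognition protein of the pentraxin family, stood at 436, 171 and 282 CPM against 30.7 to 76.6 CPM and was not called after summing. The groups were apart in all 3 genes.

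Il4ra, Il31ra and Il1r2, which belong to no list, rose with 4 bone marrow libraries and were not called after summing. Il4ra, a receptor chain for interleukins 4 and 13, stood at 245, 235 and 441 CPM against 14.9 to 64.2 CPM, and Il31ra, a receptor chain for the itch cytokine interleukin 31, at 23.1, 73.6 and 23.9 CPM against 0.391 to 2.20 CPM. Il1r2, a decoy receptor for interleukin 1, stood at 55.6, 31.8 and 193 CPM against 0 to 2.88 CPM. Isg15, a ubiquitin-like protein induced by interferon, stood at 20.5, 60.1 and 16.8 CPM against 0.196 to 1.66 CPM, and Gbp2, a guanylate-binding protein, at 82.5, 146 and 81.6 CPM against 20.8 to 28.7 CPM (log2 fold change 1.99 ± 0.42, the smallest of the higher calls). By edgeR, antigen presentation genes had 0 calls among 28 (9 at an unadjusted p below 0.05, median 1.65) and complement genes 0 among 23 (10 at that p, median 1.23). DESeq2 called 4 of each list, and limma-voom 0 and 1. H2-K1, a class I antigen-presenting chain, stood at 383, 677 and 537 CPM against 374, 348, 188 and 357 CPM. Leukocyte genes were low in both groups, 19.4 to 114 CPM summed over 13 genes in skin Ebf2+ and 15.2 to 49.8 CPM in bone marrow, while Cd74, the class II chaperone in that list, stood at 0.466, 69.2 and 30.0 CPM against at most 0.300 CPM and was not called.

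Some genes for hormones, receptors and guidance proteins were nearly without reads in bone marrow. Reln (Entrez 19699, GRCm38, chromosome 5, 21884454 to 22344705), a secreted protein that guides neurons and is also made by lymphatic and mesenchymal cells, stood at 48.0, 172 and 78.7 CPM in skin Ebf2+ against 2 reads in bone marrow. Rxfp1, the relaxin receptor, stood at 17.3, 219.8 and 15.3 CPM, also against 2 reads, and Gcg, the glucagon precursor, at 10.1, 56.9 and 24.1 CPM against 0 reads (at least 954-fold higher). All 3 were highest in skin Ebf2+ 2 and were called in both fits. Olfr558, an olfactory-type receptor, stood at 14.7, 52.4 and 5.63 CPM against 0 reads. Gfra2, a receptor for the neuronal growth factor neurturin, was present in bone marrow as well, at 1.29 to 7.97 CPM against 82.1, 98.4 and 39.9 CPM in skin Ebf2+, and was not called after summing. Of 33 genes for peptide hormones, neuropeptides and their receptors 2 rose and 1 fell, and of 62 axon guidance and neurotrophic genes 2 rose and 0 fell.

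Further genes called higher in both fits encode proteins of basement membrane, clotting and signalling. Tinagl1, a matrix protein of basement membranes, stood at 32.0, 110.3 and 111 CPM in skin Ebf2+ and at 0.0490, 1.47, 0.0899 and 0.150 CPM in bone marrow (log2 fold change 7.58 ± 1.20). Tfpi, the inhibitor of the clotting trigger tissue factor, stood at 104, 162 and 80.2 CPM against 2.94 to 9.21 CPM. Plac8 stood at 36.0, 26.4 and 71.2 CPM against 0.294 to 1.77 CPM, and Ptpn5, a tyrosine phosphatase best known from neurons, at 21.5, 15.5 and 18.7 CPM against 1 read. Adap2, a regulator of Arf proteins, stood at 15.4, 69.1 and 3.75 CPM against 1 read. Endothelial genes had 0 calls among 13 by edgeR, with 4 at an unadjusted p below 0.05, while DESeq2 called 3 and limma-voom 1. Pecam1, which encodes the CD31 used to exclude endothelial cells, stood at 0, 0 and 20.9 CPM in skin Ebf2+. In bone marrow 1 to 4 it stood at 5.39, 6.36, 1.95 and 3.55 CPM.

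The Wnt, hedgehog, transforming growth factor beta and Notch lists held 1 or 2 calls each, while 0.923% of all genes tested were called. Dkk2, a secreted Wnt inhibitor, stood at 4.31, 1.92 and 12.2 CPM in skin Ebf2+ and at 153, 112, 113 and 153 CPM in bone marrow (log2 fold change -4.43 ± 0.73, edgeR adjusted p = 0.0144, and 0.0413 summed). Lrp5, a Wnt co-receptor that bone formation depends on, stood at 3.06 to 7.10 CPM against 59.8 to 96.2 CPM. These were the 2 calls among 51 Wnt pathway genes, whose median was -0.41. Ptprd (Entrez 19266, GRCm38, chromosome 4, 75941237 to 78211742), a receptor-type tyrosine phosphatase, varied little among the skin libraries, at 6.17, 8.38 and 7.58 CPM against 286, 249.5, 136 and 264 CPM (log2 fold change -4.98 ± 0.53, edgeR adjusted p = 0.00146, and 0.00365 summed). Gas1, a hedgehog co-receptor, fell from 674 to 845 CPM in bone marrow to 75.3, 78.6 and 121 CPM in skin Ebf2+ and was the 1 call among 15 hedgehog genes. Ccn2, a matrix protein induced by transforming growth factor beta, stood at 98.5, 78.1 and 174 CPM against 436 to 1476 CPM, the 1 call among 29 genes of that pathway. Of those 29 genes 14 had every skin library below every bone marrow library, against 7.66% of all genes tested, and the median was -0.93. Nrarp, a Notch target, was the 1 call among 17 Notch genes, at 14.7, 49.6 and 10.3 CPM in skin Ebf2+ against 0 to 0.569 CPM. Lrp5, Gas1, Ccn2 and Nrarp were not called after summing.

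Of 19 niche genes, by which marrow stroma holds blood stem cells, 1 fell, Lepr, and 1 rose, Il6. Of all genes tested 0.923% were called. Neither Lepr nor Il6 was called after summing. The median log2 fold change of the 19 was -1.20 against 0.09 over all genes, with 14 negative and 5 positive. Lepr, the leptin receptor that marks perivascular stroma, stood at 63.2, 39.8 and 47.8 CPM in skin Ebf2+ and at 403, 339, 325 and 367 CPM in bone marrow. Cxcl12, the chemokine that retains blood stem cells, overlapped between the groups, at 471 to 1333 CPM against 258 to 1737 CPM with bone marrow 3 the lowest. Kitl, stem cell factor, stood at 119.6, 157 and 127 CPM in skin Ebf2+ and at 9.82 to 56.2 CPM in bone marrow without being called (log2 fold change 1.65 ± 0.57, edgeR adjusted p = 0.189).

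Other calls concerned enzymes, channels and adhesion proteins. Htra4, a secreted serine protease, stood at 10.7, 1.57 and 3.60 CPM in skin Ebf2+ against 75.5 to 315 CPM in bone marrow. Adamts4, an aggrecan-cleaving protease, went the other way, at 178, 328 and 66.4 CPM against 6.30 to 23.4 CPM, and was not called after summing. Of 39 genes for matrix proteases and their inhibitors 3 fell and 1 rose. Kcnma1, a calcium-activated potassium channel, stood at 0.175 to 0.625 CPM against 27.3 to 116 CPM, and Cemip, a hyaluronan-degrading protein, had 0 reads in skin Ebf2+ against 8.45 to 51.4 CPM. Ncam1, a neural cell adhesion molecule, stood at 3.38, 4.63 and 12.6 CPM against 65.1 to 131 CPM, and Atp6v0a4, a proton pump subunit, had 3 reads in skin Ebf2+ against 21.2 to 109 CPM. Slurp1, a secreted protein known from keratinocytes, ran against the keratins: it had 0 reads in skin Ebf2+ and 102, 28.6, 68.8 and 101 CPM in bone marrow (at least 820-fold lower), and was not called after summing.

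**Figure D5:**
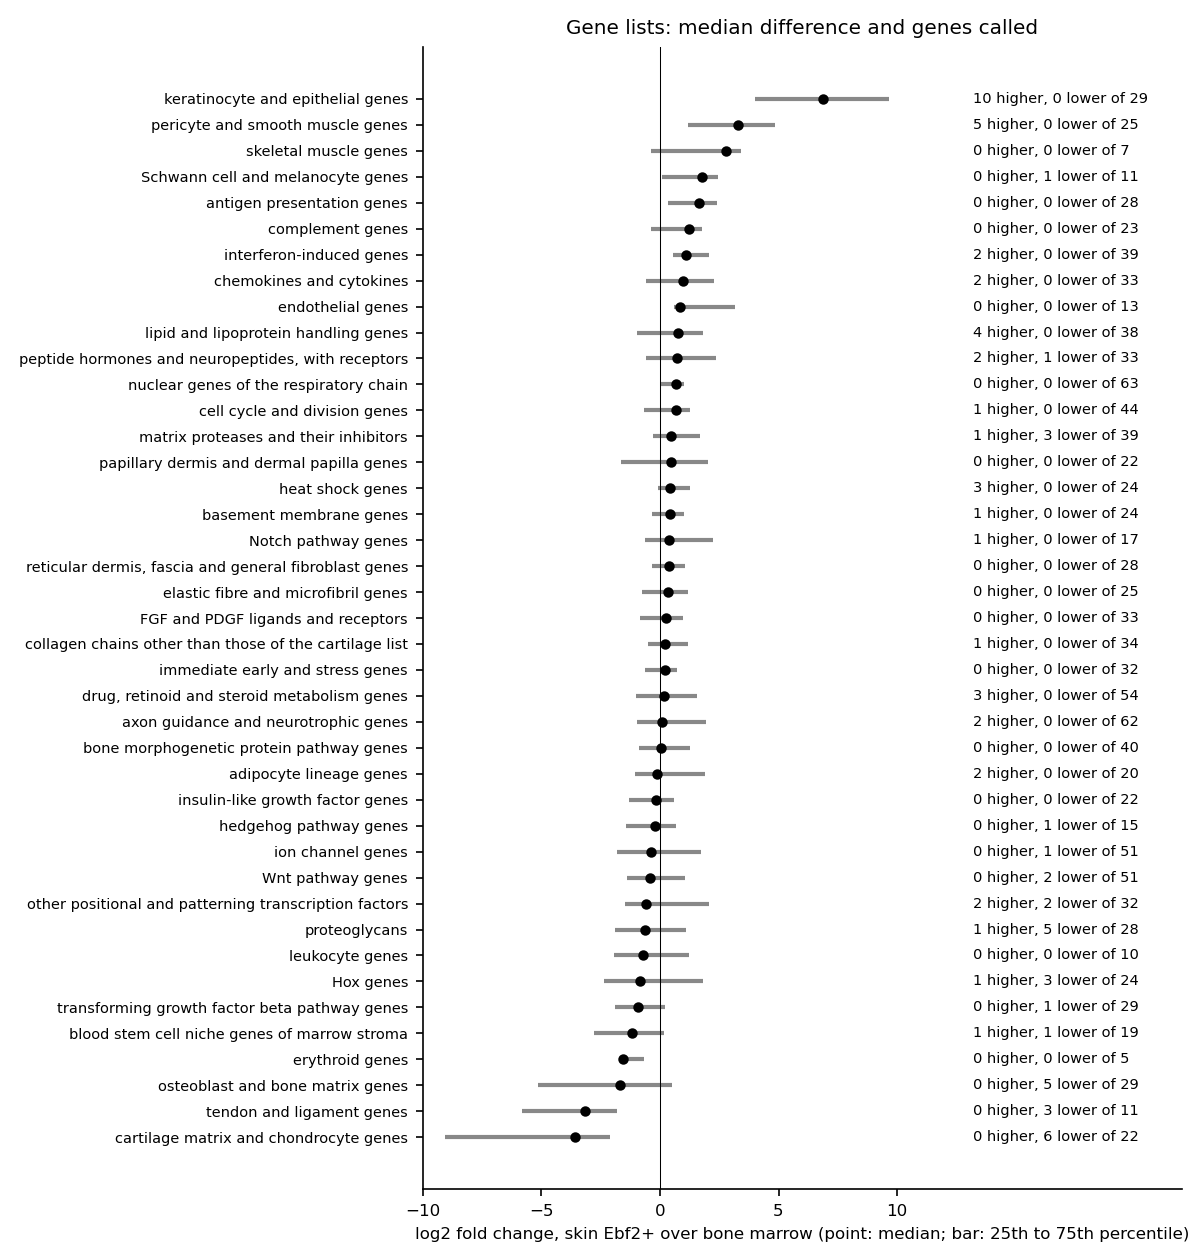
Median log2 fold change (skin Ebf2+ over bone marrow) of the tested members of each gene list other than the sex-linked and strain lists, with a bar from the 25th to the 75th percentile, and the numbers called higher and lower. Epithelial genes (median 6.87) and pericyte and smooth muscle genes (3.29) stand highest among the lists drawn, and tendon (-3.14) and cartilage genes (-3.58) lowest.

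Fibroblast and growth factor lists gave no calls by edgeR, while 0.923% of all genes tested were called. At that share a list of this size may hold no call, whatever its genes. The same holds for the other lists above without a call. Lists of papillary dermis and dermal papilla, reticular dermis and fascia, elastic fibre, bone morphogenetic protein, FGF and PDGF, and insulin-like growth factor genes had 0 calls, among 22, 28, 25, 40, 33 and 22 genes in that order, by edgeR. At an unadjusted p below 0.05 they had 9, 7, 7, 9, 10 and 8 genes, DESeq2 called 7, 2, 5, 6, 7 and 5, and limma-voom 2, 0, 1, 2, 0 and 1. The nuclear genes of the respiratory chain had 0 calls among 63 by edgeR (9 at an unadjusted p below 0.05), 2 by DESeq2 and 0 by limma-voom. Dcn, decorin, stood at 11818, 11661 and 11096 CPM in skin Ebf2+ and at 12908 to 19707 CPM in bone marrow, and Col3a1, a collagen of loose connective tissue, at 6749, 7734 and 26132 CPM against 5045 to 7653 CPM. Igfbp5, which binds insulin-like growth factors, stood at 6174, 3682 and 970 CPM against 8000 to 8403 CPM. A p that misses the threshold does not show that a gene is equal in both groups.

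The genes of the sort were measured in both groups. Ebf2 stood at 210.4, 318 and 156 CPM in skin Ebf2+ and at 338, 187, 141 and 330 CPM in bone marrow, so the groups overlapped in the transcript that marks the skin cells (log2 fold change -0.13 ± 0.46, edgeR adjusted p = 0.930). Ly6a, which encodes Sca1, stood at 1078 to 1404 CPM against 535 to 1233 CPM, Itgav, which encodes CD51, at 73.9 to 208 CPM against 163 to 249 CPM, and Pdgfra, which encodes CD140a, at 597 to 874 CPM against 718 to 1862 CPM. Ptprc, which encodes CD45, was at or below 0.860 CPM in all 7 libraries.

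Genes known to differ between mouse strains or sexes were among those measured. Ifi202b, an interferon-inducible gene that C57BL/6 mice are known to express poorly, stood at 28.9, 54.7 and 65.7 CPM in skin Ebf2+ and had 2 reads in bone marrow (edgeR adjusted p = 0.000740, and 0.00307 summed). Nnt, a mitochondrial enzyme whose gene is truncated in C57BL/6J, stood at 18.4, 78.4 and 60.3 CPM against 6.57 to 14.05 CPM and was not called. Kdm5d, a Y chromosome gene, had 2 reads in skin Ebf2+ and stood at 41.9, 9.29, 23.3 and 38.4 CPM in bone marrow 1 to 4. It was not called after summing. The Y chromosome genes Ddx3y, Eif2s3y and Uty were not called. In skin Ebf2+ 3 they stood at 6.49, 2.42 and 1.41 CPM, and in skin Ebf2+ 1 and 2 at no more than 0.116 CPM. In bone marrow 3 they stood at 56.6, 19.6 and 13.9 CPM, and in the other bone marrow libraries at no more than 22.7, 6.85 and 2.40 CPM. For Ddx3y and Eif2s3y every skin library was below every bone marrow library, as in 7.66% of all genes tested. Xist, which is transcribed from the inactive X chromosome, stood at 3095, 3375 and 132 CPM in skin Ebf2+ and at 2210, 1677, 0.389 and 2001 CPM in bone marrow. Skin Ebf2+ 3 and bone marrow 3 therefore stood apart from the rest of their groups in Xist. Ddx3y, Eif2s3y and Uty were each highest in those same libraries of their groups. Kdm5d did not follow this split in bone marrow, since bone marrow 1 and 4 held more of both Kdm5d and Xist than bone marrow 3. Strain and tissue cannot be told apart for these genes, and the part of sex was not tested.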

How the data were processed

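Gene counts were taken as deposited: per the file headers the authors aligned reads with STAR to the GRCm38 primary assembly, counted them per Entrez gene with featureCounts and tested them with DESeq2, and the submitters' processing notes name FastQC 0.11.8, MultiQC 1.7 and STAR 2.6.1d. Libraries were made with SMART-Seq v4 and Nextera XT, per the labels. No source used here gives the strand setting, and 52 of the 132 called genes with coordinates overlap another gene, so their reads are uncertain. The authors' deposited log2 fold changes and adjusted p-values were used only to count shared calls, and their 10 normalized columns were not used.

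The table holds 14995 genes, each with at least 21 counts in all and counts in at least 3 libraries. Of these 251 had no symbol, 18 symbols stored as dates were restored, and 14522 had coordinates in RefSeq GRCm38.p6. Tests on the counts used edgeR 4.0.16 under R 4.3.3 (filterByExpr, TMM, quasi-likelihood test on 10 libraries in 3 groups, Benjamini-Hochberg adjustment over all genes tested), checked first on simulated data. Alternatives included limma 3.58.1 and DESeq2 1.42.0. A standard error is the log2 fold change over the square root of F. A gene with 0 reads in a group is given a floor of 3 counts over that group. Correlations of same-numbered libraries' deviations between skin Ebf2+ and bone marrow were 0.0696, -0.0402 and 0.0983, so the numbers were not taken to pair them. Skin Ebf2+ 3 and skin Ebf2- 3 were both low in Rn45s, at 0.593% and 0.170% of counts, and in Xist, at 132 and 48.8 CPM. A link between same-numbered skin libraries was not allowed for in the fit.

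The genes and lists were chosen with earlier results of these data known. Named by rule were the sort markers, the 15 largest differences each way among genes called in both fits with at least 10 CPM and no overlap, the 10 lowest p each way, up to 3 called members of each list each way or, with none, the 2 most abundant, the 5 most abundant genes of each group, and the sex-linked and strain lists. Other genes named were chosen after their values were seen. Values of 1 called gene are not reported here.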

Additional observations from a re-analysis of the deposited data

Results flagged for a closer look

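Of 112 genes with enough reads, 24 had 1 bone marrow library far from the other 3 by Dixon's test at the 95% level, which chance alone gives in about 1 in 20 groups. Bone marrow 1 and 4 nearly coincide, so the 4 libraries hold about 3 distinct values, and this was not allowed for. Bone marrow 3 was the high library for the matrix genes Chad at 9327 CPM, Clec3a at 1469 CPM, Cilp2 at 875 CPM, Fmod at 3737 CPM and Prelp at 14369 CPM. It was also high for Ccn2 at 1476 CPM, Fxyd5 at 394 CPM, Cd109 at 364 CPM, Synm at 234 CPM, Atp6v0a4 at 109 CPM, Nrn1 at 50.7 CPM and Entrez100502984, which has no symbol in the table, at 36.8 CPM. Among genes higher in skin Ebf2+ it was high for Tagln at 18.2 CPM, Il1r2 at 2.88 CPM and Ugt1a6a at 0.809 CPM.

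Bone marrow 3 was the low library for H2-K1 at 188 CPM, Il4ra at 14.9 CPM and Tfpi at 2.94 CPM. Bone marrow 2 stood apart in the remaining 6 genes. It was low for Mab21l2 at 11.8 CPM and Arhgap31 at 58.6 CPM, and high for Nrcam at 3.18 CPM, Bcam at 1.71 CPM, Cyp4b1 at 4.84 CPM and Tinagl1 at 1.47 CPM. No explanation of these values was tested.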

How the results depend on the processing

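The direction of each of the 134 called genes was kept under each of the 28 alternatives that tested it, while the number called moved. It was 76 with only the 7 libraries of both groups, 51 with bone marrow 1 and 4 summed, 34 with both changes, 8 with bone marrow 1 and 4 left out, 51 with bone marrow 1 to 3 only, 1 with bone marrow 4 only and 7 with a term for the earlier study. DESeq2 called 1140 and limma-voom 223. All alternatives used counts of the same libraries, so they are not independent of the first fit or of each other. The fit with bone marrow 1 to 3 only is also the fit without bone marrow 4, and it is counted under both names. Leaving out 1 library gave 44 (without bone marrow 1) to 200 (without skin Ebf2+ 3), and 8 to 85 for the summed comparison, with 8 without the summed library of bone marrow 1 and 4. Settings chosen after seeing the data gave 237 without both skin libraries numbered 3, and 85 without skin Ebf2+ 3 and with bone marrow 1 and 4 summed. With the replicate number as a block 67 were called, 55 of them among the 134, but the numbers were not taken to pair skin Ebf2+ with bone marrow. The median over all genes was 0.19 under upper quartile scaling and under library totals, against 0.09. Ebf2 turned from -0.13 to 0.0092 with bone marrow 1 and 4 summed, 0.028 with both groups only and these summed, 0.48 with them left out, 0.039 with bone marrow 1 to 3, 0.066 with the block, 0.084 without both skin libraries numbered 3 and 0.22 without skin Ebf2+ 3 and summed, and ranged from -0.48 to 0.083 over single libraries left out. Ly6a turned from 0.28 to -0.0052 with the earlier-study term and -0.0071 with bone marrow 4 only. The cause of these changes was not tested. At these depths genes with few reads in both groups could not be compared.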
